A study of Arabidopsis thaliana with 9 samples.

Results

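The data described here concern 9 genes of sugar transport and phloem loading in the Arabidopsis thaliana hypocotyl: the sucrose transporter genes SUC2, SUC3 and SUC4, the SWEET sugar facilitator genes SWEET11, SWEET12, SWEET13, SWEET16 and SWEET17, and the proton pump gene AHA3. They were taken by locus identifier, a rule that uses no measured value, and all 9 were found among the 38115 genes of the plate and 10x all hypocotyl matrices and among the 36957 genes of the d14 and WT matrices. The study measured RNA of single nuclei sorted from hypocotyls, the organ between shoot and root that thickens through the activity of the cambium. The VASA cambium group held 3 plates processed by VASA-seq, a plate method that reads fragments along the whole transcript, loaded with nuclei positive for GFP and/or RFP from 4-week-old wild-type plants of the PXY:H4-GFP;SMXL5:H2B-RFP line, in which promoters of the cambium genes PXY and SMXL5 drive the reporters. The VASA all hypocotyl group held 3 plates of nuclei from the same line and age taken without that gate, and the 10x all hypocotyl group was 1 droplet library of the same line and age. The d14 group was 1 droplet library of the strigolactone receptor mutant d14-1 at 19 days, and the WT group was 1 droplet library of wild-type plants of that age. Neither of those carried a reporter. All plants were raised on agar medium that contained sucrose, in 10 h light and 14 h dark. Hypocotyls of many plants were pooled, and the 3 plates of a gate came from 1 collection, so the spread between plates is technical, and gate and collection cannot be told apart.

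Sucrose moves from source leaves to growing tissues in the phloem. In Arabidopsis leaves it leaves phloem parenchyma cells through plasma membrane SWEET facilitators and is then pumped into companion cells by proton-coupled sucrose transporters, which draw on the gradient made by plasma membrane proton pumps. In the hypocotyl the same phloem delivers sugar to the dividing cambium and to storage parenchyma, where vacuolar carriers move sugars in and out of the vacuole. SUC2 is the sucrose-proton symporter of companion cells and AHA3 is the proton pump known from the same cells. SUC3 is a plasma membrane sucrose transporter and SUC4 a vacuolar one. SWEET11, SWEET12 and SWEET13 are plasma membrane sucrose facilitators, and SWEET16 and SWEET17 are facilitators of the vacuolar membrane, SWEET17 being known for fructose.

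In the RefSeq annotation of TAIR10.1, SUC2 (AT1G22710) lies on chromosome 1 from 8030587 to 8033156. SUC3 (AT2G02860, listed there as SUT2) lies on chromosome 2 from 828279 to 832619, and SUC4 (AT1G09960, listed as SUT4) on chromosome 1 from 3243986 to 3247216. SWEET11 (AT3G48740) and SWEET16 (AT3G16690) are on chromosome 3, from 18052466 to 18054832 and from 5684317 to 5686544. SWEET12 (AT5G23660), SWEET13 (AT5G50800) and AHA3 (AT5G57350, listed as HA3) are on chromosome 5, from 7971647 to 7973995, from 20665068 to 20667312 and from 23230874 to 23236682. SWEET17 (AT4G15920) is on chromosome 4 from 9030486 to 9033648. The 250 bases before the annotated start of SUC2 are shown because SUC2 had the largest difference between cell types of the 9 genes, as described below. They are printed in the direction of the gene, from chr1:8033157-8033406 on the minus strand, with matches to AAAG or its complement CTTT, the core letters of Dof factor sites, in capitals.
SUC2: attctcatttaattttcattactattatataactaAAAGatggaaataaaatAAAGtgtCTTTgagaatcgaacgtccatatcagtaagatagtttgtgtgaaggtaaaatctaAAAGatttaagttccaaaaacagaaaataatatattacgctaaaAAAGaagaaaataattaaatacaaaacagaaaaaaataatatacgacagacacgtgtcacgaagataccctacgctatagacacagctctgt
The window held 5 matches counted on both strands, with no match overlapping another. Such matches are common, since 98.0% of the 27443 windows of protein-coding genes held at least 1, with a median of 4 in a window, and 39.4% held at least 5. The letters are a description of the window and not evidence of binding.

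Total counts were 1710013 to 2445623 on the 6 plates and 18175630 to 21650313 in the 3 droplet libraries, and 181 to 313 nuclei on a plate, 2081 in the 10x all hypocotyl library, 822 in d14 and 684 in WT passed the limits on counts. Median counts in a nucleus were 4086 to 6059 on plates and 1852 to 2029.5 in droplets. One passing barcode was shared between the 10x all hypocotyl and WT libraries. D14, the gene changed in the mutant, had 14.9 counts per 1000000 counts (CPM) in the library labelled d14 and 15.3 CPM in WT. These libraries count the ends of transcripts and the sources used here do not place the lesion relative to them, so D14 does not check the label, and d14 and WT below name libraries by their labels. The reporter transcripts did not pass the test between the gates: H4-GFP had 52.1 to 93.2 CPM on VASA cambium plates, against 77.9 to 110.9 CPM on VASA all hypocotyl plates, a log2 difference of -0.36 ± 0.23 (SE, false discovery rate (FDR) 0.53), and H2B-RFP differed by 0.057 ± 0.22 (FDR 0.95).

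Of the 9 genes, 6 were read well on the plates and 3 had next to no counts in every library. Levels below are in CPM of all counts in passing nuclei. SWEET17 had 1128 counts over the 6 plates and averaged 121 ± 11.7 CPM (SD, n = 6 plates), AHA3 had 826 counts and 89.0 ± 29.8 CPM, SUC3 had 638 and 68.0 ± 16.6 CPM, SUC2 had 587 and 63.5 ± 18.6 CPM, SUC4 had 383 and 40.7 ± 5.29 CPM, and SWEET16 had 120 and 13.1 ± 7.55 CPM. Per kilobase of gene, the scale on which genes can be ranked on plates, the order was SWEET17 with 38.3 ± 3.70 CPM, SUC2 with 24.7 ± 7.23, SUC3 with 15.7 ± 3.83, AHA3 with 15.3 ± 5.14, SUC4 with 12.6 ± 1.64 and SWEET16 with 5.89 ± 3.39 CPM per kilobase (SD, n = 6 plates). The ranges of mean and SD overlapped between SUC2 and SUC3, between SUC3 and AHA3 and between AHA3 and SUC4, so only SWEET17 at the top and SWEET16 at the bottom stood clear of their neighbours. Detection differed from level. SWEET17 had a count in 38.9% of the 1588 plate nuclei, SUC3 in 28.6% and SUC4 in 17.9%, whereas AHA3 was counted in 11.5%, SUC2 in 8.63% and SWEET16 in 4.53%. SUC2 and SUC3 thus had levels within their spread of each other while SUC3 was counted in 454 nuclei and SUC2 in 137.

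The plasma membrane SWEET genes gave almost no counts. SWEET11 had 3, 0 and 1 counts on the VASA cambium plates and 2, 4 and 0 on the VASA all hypocotyl plates. SWEET12 had 1, 4 and 1 counts on the VASA cambium plates and 0 on each VASA all hypocotyl plate, and SWEET13 had 2 counts over all 6 plates. In the 10x all hypocotyl library SWEET11 had 2, SWEET12 had 5 and SWEET13 had 7 counts among 4607519. All 3 had 0 counts in d14 and in WT, where 3 counts, the limit that a count of 0 allows, would be 1.44 CPM in d14 and 1.77 CPM in WT. SWEET11 and SWEET12 are closely related copies, and how reads that fit both were counted is not given in the sources used here. The 7 SWEET13 counts of the 10x all hypocotyl library came from 2 nuclei, 6 of them from 1 nucleus of an unnamed cluster led by organelle genes. Of the 10 SWEET11 counts on plates, 3 lay in xylem parenchyma-like, 1 in cortex-like and 6 in unnamed nuclei, classes explained below, and none lay in phloem parenchyma-like nuclei, where 289469 counts were read. At this depth the leaf pattern of these 3 genes was not detectable. The study itself plotted SUC2, SWEET11, SWEET12 and AHA3 among markers of cell types, so where those genes lie is not independent of how the hypocotyl data were first read.

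**Figure D1:**
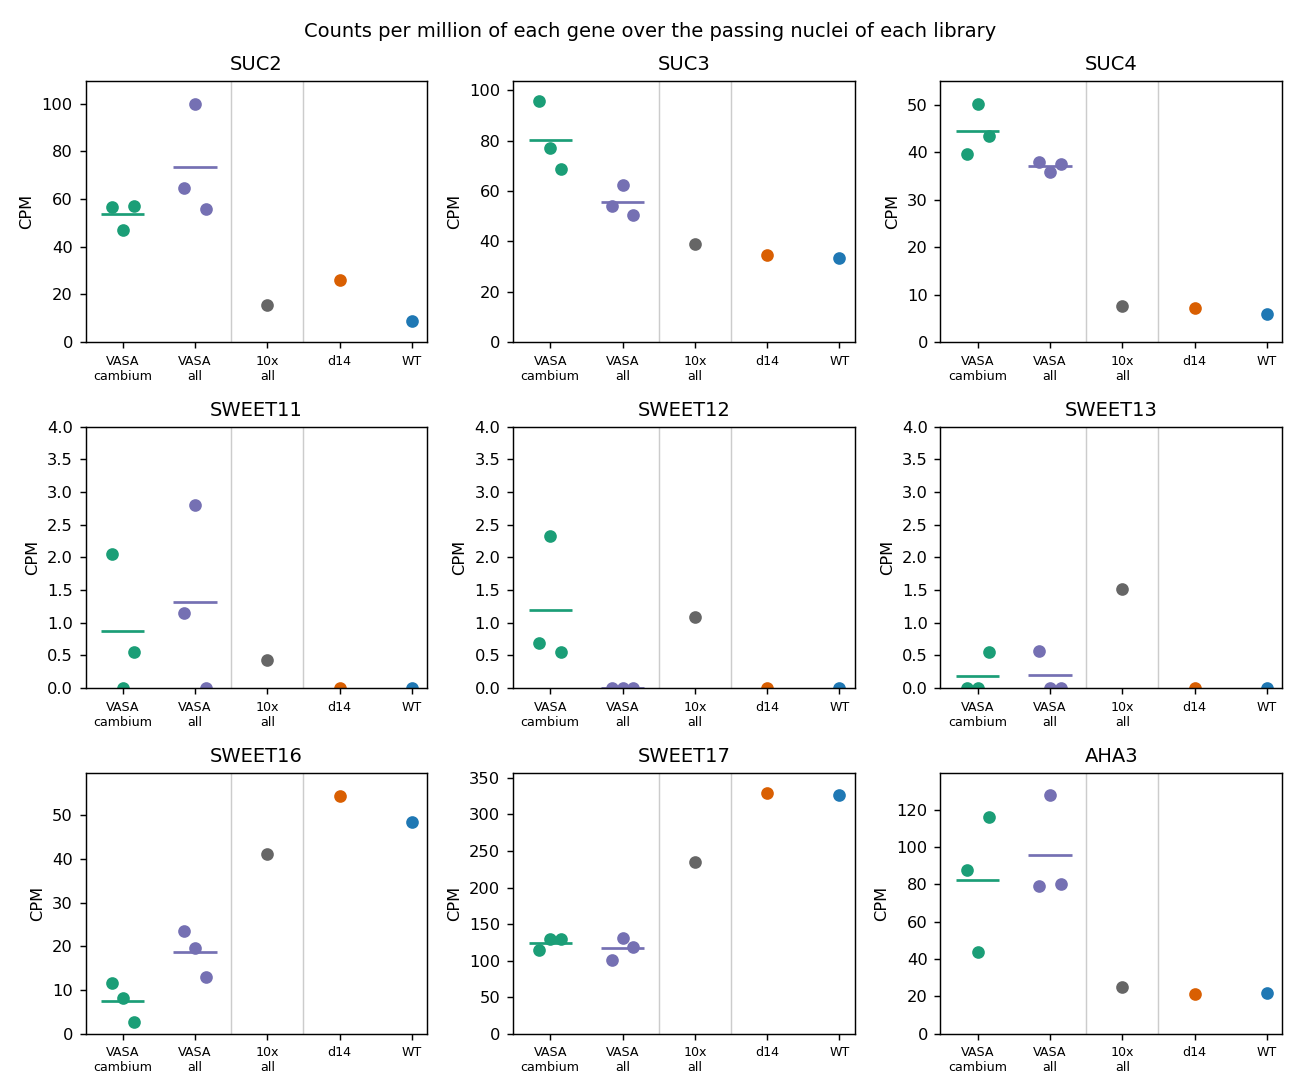
Level of each of the 9 genes in every library, in CPM of the passing nuclei on a linear axis that starts at 0, 1 point a library. Plates of the VASA cambium and VASA all hypocotyl groups have 3 points each, and SWEET11, SWEET12 and SWEET13 stay under 3 CPM in all 9 libraries while SWEET17 lies between 101 and 329 CPM.

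In droplets, which count transcript ends, SWEET17 was again high. SWEET17 had 329 CPM in d14, 326 CPM in WT and 235 CPM in the 10x all hypocotyl library. SWEET16 had 54.3 CPM in d14, 48.3 CPM in WT and 41.0 CPM in the 10x all hypocotyl library, above each of the 6 plates, which lay between 2.74 and 23.5 CPM. SUC2 had 26.0, 8.84 and 15.6 CPM in d14, WT and the 10x all hypocotyl library and lay between 47.2 and 99.7 CPM on plates, and AHA3 had 21.2 and 21.8 CPM in d14 and WT and lay between 43.7 and 127.8 CPM on plates. SUC3 had 34.6, 33.6 and 39.1 CPM and SUC4 had 7.21, 5.90 and 7.60 CPM in the same order of libraries. The vacuolar SWEET genes were therefore higher in droplets and the SUC genes and AHA3 higher on plates. The methods differ in the part of the transcript they read, and plates and droplets were not tested against each other.

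Nuclei were next grouped by cell type, to ask where each of the 9 genes was read. Nuclei were clustered without the 9 genes, and clusters were given a name ending in -like from marker lists that leave the 9 genes out. The lists came from published leaf vein, root and periderm genes. On the plates this named 73 companion cell-like, 50 phloem parenchyma-like, 179 xylem parenchyma-like, 87 cambium-like, 87 cortex-like, 27 periderm-like and 22 epidermis-like nuclei and left 1063 unnamed. The companion cell markers summed to 39.6 times their level in other plate nuclei in the companion cell-like cluster, with 11 of 15 raised at least 2-fold, and the phloem parenchyma markers to 26.0 times in theirs, with 14 of 33 raised. SUC2 was itself among the 10 leading genes of the companion cell-like cluster, where it had no vote. Genes that vary with the 9 were used to form the clusters, so the differences below describe where transcripts lie among clusters made from the same nuclei.

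SUC2 and AHA3, the importer and the pump, were read mostly in companion cell-like nuclei. These nuclei were 4.60% of the plate nuclei and 3.95% of their counts, and held 84.2% of the SUC2 and 76.0% of the AHA3 counts. SUC2 had 1423, 1343 and 1189.9 CPM in companion cell-like nuclei of the VASA cambium plates and 1234, 1771 and 1043 CPM in those of the VASA all hypocotyl plates, against 27.4, 0 and 0 CPM and 0, 0 and 0 CPM in phloem parenchyma-like nuclei of the same plates. AHA3 had 1383, 1245 and 2197 CPM in companion cell-like nuclei of the VASA cambium plates and 1349.8, 2158 and 1545 CPM in those of the VASA all hypocotyl plates, against 0, 16.2 and 12.4 CPM and 0, 0 and 0 CPM in phloem parenchyma-like nuclei. The classes did not overlap on any plate for either gene, and how many of all genes part in this way was not counted. Over the plates SUC2 had 494 counts in companion cell-like and 1 in phloem parenchyma-like nuclei, a CPM ratio of 388 with a 95% counting interval of 69.3 to 15359, and AHA3 had 628 and 2 counts, a ratio of 247 with an interval of 68.0 to 2041.

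The test of this difference summed counts by class and plate and used edgeR's quasi-likelihood test with plate as a term. Of all 3657 genes tested, 14.4% were higher and 12.2% lower in companion cell-like than in phloem parenchyma-like nuclei at an FDR of 0.05, 26.6% in all. Of the 9 genes, 3 had enough counts to be tested and passed, each of them through the class where it was high, so their number is not read against that share. SUC2 was higher by 8.20 ± 0.54 on the log2 scale (SE, FDR 8.5e-18) and AHA3 by 7.78 ± 0.51 (FDR 8.8e-18), and SWEET17 was lower, by -2.89 ± 0.51 (FDR 1.0e-05). The fitted sizes of SUC2 and AHA3 rest on 1 and 2 counts in phloem parenchyma-like nuclei. Their SEs were computed from the F statistic of the test and do not show the width of the counting intervals of these genes. SUC3 with 22 counts in companion cell-like and 17 in phloem parenchyma-like nuclei, SUC4 with 12 and 14, and SWEET16 with 0 and 2 did not pass the filter on low counts. Their CPM ratios were 1.02 (0.52 to 2.04) for SUC3 and 0.67 (0.28 to 1.57) for SUC4, companion cell-like over phloem parenchyma-like, and with all genes let in none of them passed the test. SWEET11, SWEET12 and SWEET13 had 0 counts in both classes.

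Single nuclei showed how SUC2 and AHA3 went together. Of the 73 companion cell-like plate nuclei, 53 had both, 17 had AHA3 only, 2 had SUC2 only and 1 had neither. The median nucleus had 3 SUC2 counts and 6 AHA3 counts, the highest had 63 and 61, and the 10 richest nuclei held 52.2% of the SUC2 and 44.3% of the AHA3 counts of the class. The share of companion cell-like nuclei with a count was 75.3% (95% exact interval 63.9 to 84.7) for SUC2 and 95.9% (88.5 to 99.1) for AHA3 at a median of 4270 counts in a nucleus, against 2.00% (0.05 to 10.6) for SUC2 and 4.00% (0.49 to 13.7) for AHA3 in phloem parenchyma-like nuclei at a median of 5136. After every nucleus was thinned to 1200 counts, the shares in companion cell-like nuclei were 56.2% for SUC2 and 83.6% for AHA3, against 2.00% for each in phloem parenchyma-like nuclei. Of all 137 plate nuclei with SUC2, 65 also had AHA3, which is 47.4% of the nuclei with SUC2 and 35.7% of the 182 nuclei with AHA3. Among the 1515 nuclei outside this class, 82 had SUC2, 112 had AHA3 and 12 had both, so AHA3 was counted in 14.6% of the nuclei with SUC2 and in 7.39% of all nuclei there. AHA3 had 94.7 CPM in an unnamed plate cluster of 138 nuclei, against 22.8 CPM of SUC2 there, and every other cluster beside the companion cell-like one was at or below 52.2 CPM of AHA3 and 17.3 CPM of SUC2. The droplet libraries had the same highest class for both genes. In d14 and WT together, 75.3% of AHA3 but only 24.6% of SUC2 counts lay in the 27 companion cell-like nuclei, at 1049 CPM for AHA3 and 292 CPM for SUC2. In the 10x all hypocotyl library SUC2 had 272 CPM and AHA3 405 CPM in the 79 companion cell-like nuclei, and 54.2% of SUC2 and 50.4% of AHA3 counts lay there. Only 8 of these nuclei had both, 9 had SUC2 only, 28 had AHA3 only and 34 had neither, at a median of 1548 counts.

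**Figure D2:**
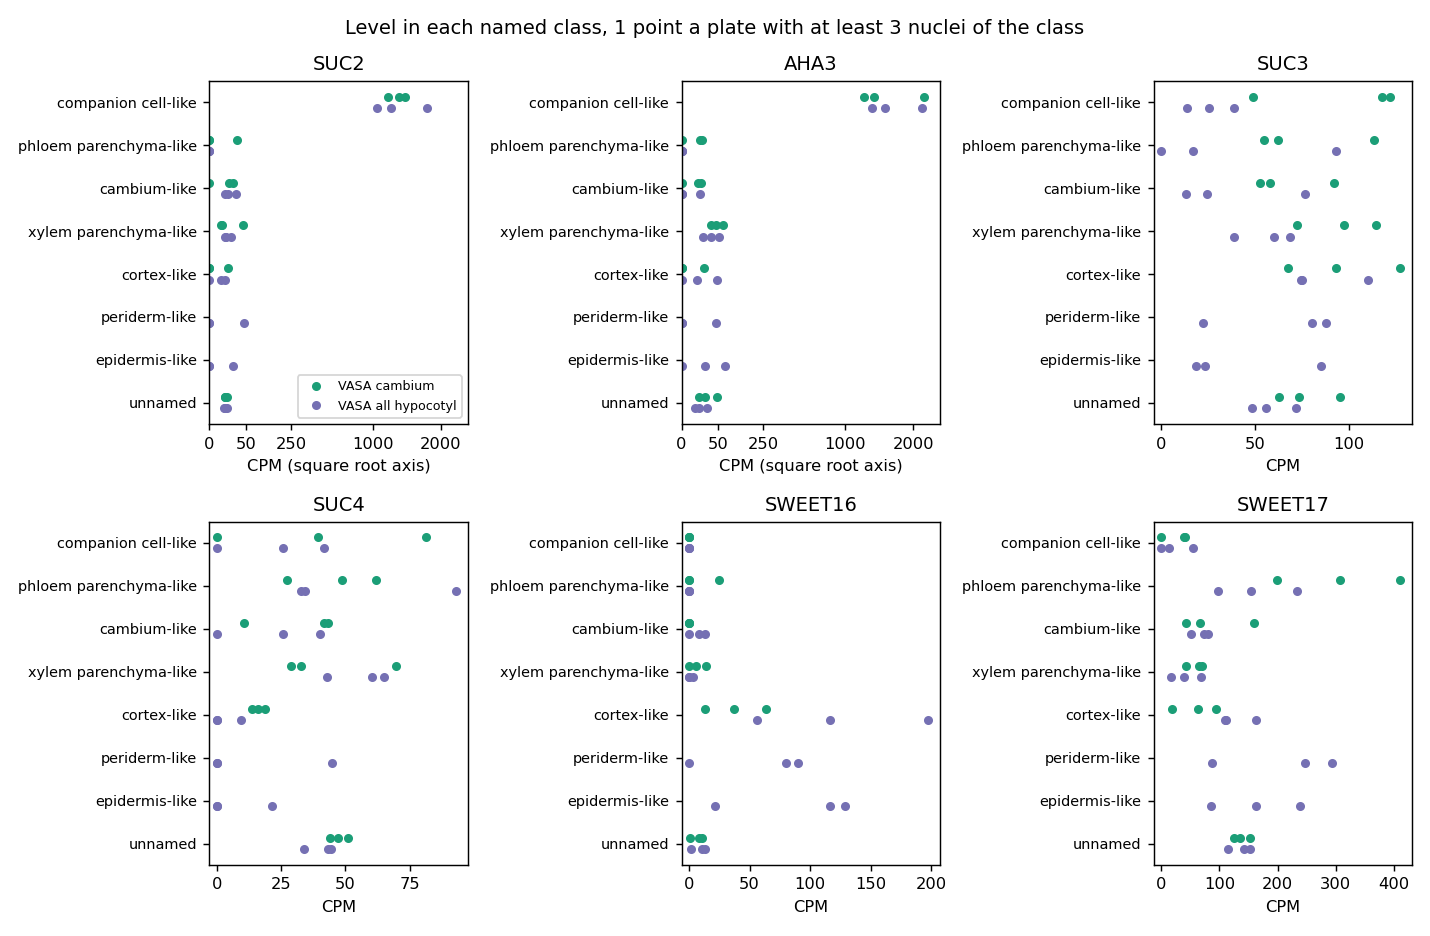
Level of 6 of the genes by cell type on the plates, in CPM of the class on that plate, with 1 point for each plate where the class had at least 3 nuclei, green for VASA cambium and purple for VASA all hypocotyl plates. SUC2 and AHA3 are on a square-root axis and lie between 1043 and 2197 CPM in companion cell-like nuclei on every plate, while SWEET17 averages 24.7 CPM there and reaches 411 CPM in phloem parenchyma-like nuclei.

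SWEET17, the vacuolar facilitator, ran opposite to SUC2 between companion cell-like and phloem parenchyma-like nuclei. It had 40.7, 0 and 39.2 CPM in companion cell-like nuclei of the VASA cambium plates and 12.9, 55.3 and 0 CPM in those of the VASA all hypocotyl plates, against 411, 308 and 199 CPM and 154, 233 and 97.8 CPM in phloem parenchyma-like nuclei. Every phloem parenchyma-like value was above every companion cell-like value, and how many of all genes part in this way was not counted. SWEET17 was high in other classes too, with 209 CPM over periderm-like and 203 CPM over epidermis-like nuclei, against 231 CPM over phloem parenchyma-like nuclei (counts of all plates pooled). Cortex-like nuclei had 115 CPM, near the SWEET17 mean of 121 CPM over the plates. SWEET17 was also high in unnamed clusters, up to 236.5 CPM in one led by genes of anthocyanin synthesis. Companion cell-like nuclei, with 27.1 CPM, were the lowest plate class, and with 55.8 CPM they were the lowest class of the 10x all hypocotyl library too, where epidermis-like nuclei had 458 CPM, periderm-like nuclei 353 CPM and phloem parenchyma-like nuclei 269 CPM. They were not clearly apart from xylem parenchyma-like nuclei on plates, with a CPM ratio of 0.51 (0.23 to 1.00). In d14 and WT together, thinned to 1500 counts, SWEET17 was counted in 14.8% of companion cell-like nuclei. The share was 15.2% in dividing-like and 19.1% in xylem parenchyma-like nuclei.

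SWEET16 was highest in cortex-like and epidermis-like nuclei of the plates and the 10x all hypocotyl library. On plates it had 63.7, 13.5 and 37.2 CPM in cortex-like nuclei of the VASA cambium plates and 116.5, 56.1 and 197.8 CPM in those of the VASA all hypocotyl plates. The pooled level was 84.3 CPM in cortex-like, 81.2 CPM in epidermis-like and 56.4 CPM in periderm-like nuclei, against 0 counts in companion cell-like nuclei and 6.91 CPM in phloem parenchyma-like nuclei. Cortex-like nuclei were 5.48% of plate nuclei and held 39.2% of the SWEET16 counts. In the 10x all hypocotyl library the order was epidermis-like with 276 CPM, cortex-like with 112 CPM and periderm-like nuclei with 60.3 CPM, and 44.9% of epidermis-like nuclei had a count, against none of the companion cell-like nuclei. Epidermis-like nuclei were deeper, at a median of 3051 counts, against 1548 in companion cell-like nuclei, but on the CPM scale the order was the same. In d14 and WT together, where no cluster was named cortex-like, unnamed nuclei held 68.7% of SWEET16 counts (69.2 CPM), epidermis-like nuclei had 115 CPM and periderm-like nuclei 28.8 CPM, from 7 counts. On plates SWEET16 and SWEET17 shared the epidermis-like and periderm-like classes and parted in phloem parenchyma-like nuclei, where SWEET17 was high and SWEET16 was not.

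SUC3 and SUC4 were spread over cell types. SUC3 lay between 48.3 CPM in periderm-like and 84.3 CPM in cortex-like nuclei (plates pooled), with SDs over plates of 23.5 to 187 CPM within the named classes, and no class stood apart from all others. SUC4 lay between 5.80 CPM in epidermis-like, 8.97 CPM in cortex-like and 52.2 CPM in xylem parenchyma-like nuclei. In cortex-like nuclei SUC4 had 5 counts where SUC3 had 47 counts. The highest class of SUC3, SUC4 and SWEET16 changed with the clustering or the limits on nuclei, whereas SUC2 and AHA3 kept companion cell-like and SWEET17 kept phloem parenchyma-like nuclei in all 4 runs on the plates.

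The xylem parenchyma-like class, named for the living cells beside the vessels, was set against the phloem parenchyma-like class in the same fit. It joined 2 clusters, and the larger, of 101 of its 179 nuclei, carried its name by the rule but was mixed: its summed markers stood at 4.24 times their level in other nuclei for xylem parenchyma, at 10.6 times for vessels and at 11.5 times for dividing cells. Where nuclei were clustered anew for an alternative, 61 or 64 nuclei of this cluster fell in a cluster named dividing-like. Of all 3657 genes, 13.4% were higher and 12% lower in xylem parenchyma-like than in phloem parenchyma-like nuclei, 25.4% in all, and of the 9 genes the same 3 were tested. SWEET17 had 65.4, 69.5 and 43.5 CPM in xylem parenchyma-like nuclei of the VASA cambium plates and 39.0, 68.5 and 17.1 CPM in those of the VASA all hypocotyl plates, below all 6 phloem parenchyma-like values given above. It was lower by -2.05 ± 0.38 on the log2 scale (SE, FDR 3.2e-05 by edgeR). AHA3 had 43.6, 32.4 and 62.8 CPM in xylem parenchyma-like nuclei of the VASA cambium plates and 17.7, 32.5 and 51.3 CPM in those of the VASA all hypocotyl plates. Phloem parenchyma-like nuclei had 0, 16.2 and 12.4 CPM and 0, 0 and 0 CPM, and the values of the classes did not overlap. The phloem parenchyma-like sums were shallow, at 21481 to 80605 counts a plate, against 116927 to 282369 in xylem parenchyma-like sums, so a value of 0 there allows a sizeable CPM. For AHA3 and SWEET17 alike, how many of all genes part in this way was not counted. AHA3 was higher by 2.38 ± 0.79 (FDR 0.020), from 48 counts in xylem parenchyma-like and 2 in phloem parenchyma-like nuclei. SUC2 had 20 counts in xylem parenchyma-like and 1 in phloem parenchyma-like nuclei, a change of 1.79 ± 0.98 that did not pass (FDR 0.19). The call for AHA3 was lost under DESeq2 (FDR 0.067) and without the mixed cluster of 101 nuclei, an alternative chosen after seeing the data (1.18, FDR 0.48). It was also lost without the nuclei of highest doublet scores (0.69, FDR 0.67) and in nuclei over 2500 counts (0.46, FDR 0.83), but in these runs the nuclei were clustered anew and the dividing-like nuclei left the class, so score or depth and class membership changed together. It was also lost without VASA cambium replicate 1 (FDR 0.053) or replicate 3 (FDR 0.063), and SUC2 passed with 3.72 (FDR 0.041) without VASA cambium replicate 1, the only plate with a SUC2 count in phloem parenchyma-like nuclei.

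Of 51 other genes of sugar transport, 17 passed the filter on low counts in the class comparisons, and 5 were higher and 2 lower in companion cell-like than in phloem parenchyma-like nuclei, beside 14.4% higher and 12.2% lower over all genes, with a median of 0.78. Higher were AKT2, a phloem potassium channel, by 4.33, SUS1, a sucrose synthase, by 4.15, STP1, a hexose-proton symporter, by 3.33, ESL1, a monosaccharide transporter, by 1.71 and AHA1, a widely expressed proton pump, by 0.99, and lower were SUS3, another sucrose synthase, by -3.08 and VI2, a vacuolar invertase that splits sucrose, by -2.90 (log2, FDR 0.0014 or less in edgeR's fit). Against phloem parenchyma-like nuclei, xylem parenchyma-like nuclei had STP1 higher by 2.93, SUS1 by 2.69, SUC1, a sucrose-proton symporter, by 2.36, and SUS4 and the proton pump AHA2 each by 1.87, while VI2 was lower by -3.69 and SUS3 by -2.63 (log2, FDR 0.047 or less). That is again 5 higher and 2 lower of 17 tested, beside 13.4% and 12% over all genes, with a median of 0.83.

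**Figure D3:**
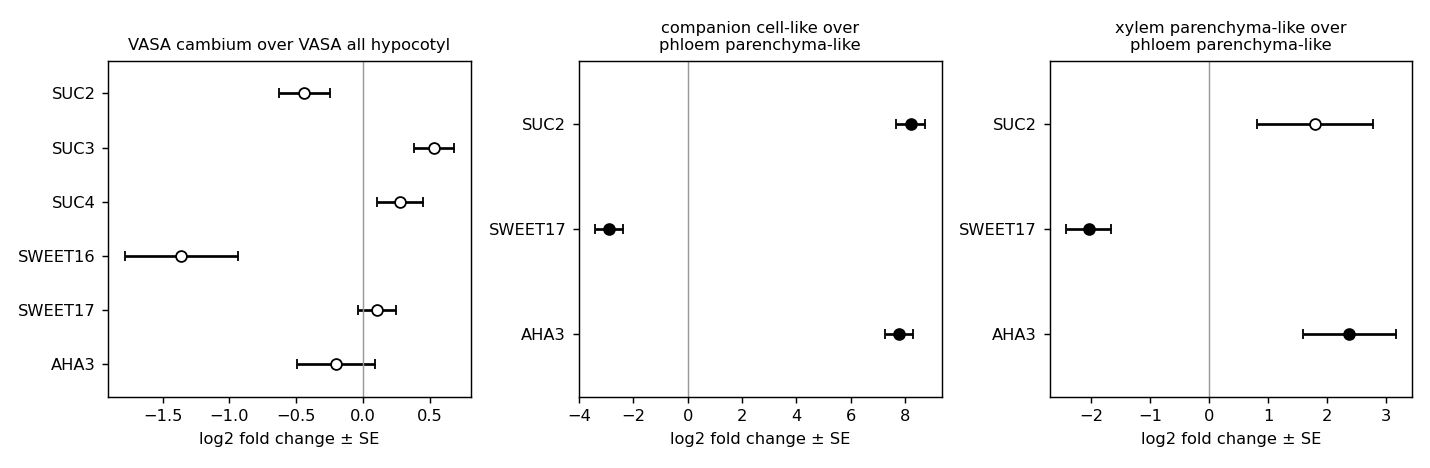
Log2 change and its standard error for each of the 9 genes tested in 3 comparisons on the plates, each comparison in its own panel with 0 marked. The standard error is the size of the change divided by the square root of the test's F statistic. Filled points passed an FDR of 0.05 over all genes tested and open points did not: SUC2 and AHA3 lie near 8 and SWEET17 near -3 between companion cell-like and phloem parenchyma-like nuclei, and no point is filled between the 2 gates.

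The likeness of patterns was described over the 17 plate clusters, as Pearson's r of log2(CPM + 10) among 13695 genes with at least 100 counts. The clusters share plates and were formed from many of the same genes, so r is a description. SUC2 and AHA3 had r = 0.92 with each other. The genes most like SUC2 were CAT7, a cationic amino acid transporter, CLE6, a small peptide gene, and AT2G40390, each with r = 0.97, and those most like AHA3 were NAKR1 (0.95), a heavy metal-binding protein of the phloem, AT1G33080 (0.94) and the phloem lectin gene PP2-A1 (0.93). SWEET16 was most like AT1G69480 (0.97), AT4G33150 (0.96) and AT3G59210 (0.95), and SWEET17 was most like AT1G09027 (0.92), AT1G02300 (0.90) and MYB3 (0.88). The nearest genes were less close for SUC4, with IAA1 (0.88), AT1G11020 (0.86) and SCC3 (0.83), and for SUC3, with AT4G35985 (0.78), EDR1 (0.78) and CMPG2 (0.75). Among the 9 genes, SWEET17 had r = -0.63 with SUC2, and SUC4 had r = -0.84 with SWEET16. NAKR1 was on the companion cell marker list and CLE6 on that of developing phloem.

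The 2 gates asked whether a gene was read more in nuclei sorted on cambium reporters than in nuclei of the whole hypocotyl. Of 16134 genes tested by edgeR on plate sums, 3.13% passed an FDR of 0.05, 1.36% higher and 1.77% lower in VASA cambium, and of the 9 genes, 6 were tested and 0 passed. Of the 6, 3 had an unadjusted p under 0.05 by edgeR, beside 2329 of all 16134 genes, and DESeq2 also called 0 of the 6 at the FDR. SUC3 had 95.6, 76.9 and 68.6 CPM on VASA cambium plates, against 53.9, 62.5 and 50.5 CPM on VASA all hypocotyl plates, a log2 difference of 0.53 ± 0.15 (SE, FDR 0.10). SUC4 had 39.6, 50.1 and 43.4 CPM on VASA cambium plates, against 37.8, 35.8 and 37.4 CPM on VASA all hypocotyl plates, a difference of 0.28 ± 0.17 (FDR 0.53). SWEET16 had 11.6, 8.16 and 2.74 CPM on VASA cambium plates, against 23.5, 19.7 and 13.1 CPM on VASA all hypocotyl plates, a difference of -1.36 ± 0.43 (FDR 0.14). For these 3 genes every VASA cambium plate lay on one side of every VASA all hypocotyl plate. For the other 3 the plates of both gates overlapped. How many of all genes tested part in this way was not counted, so the separation is not read as a result about the 9 genes. SUC2 had 56.7, 47.2 and 57.1 CPM on VASA cambium plates, against 64.8, 99.7 and 55.7 CPM on VASA all hypocotyl plates, a difference of -0.44 ± 0.19 (FDR 0.32). AHA3 had 87.4, 43.7 and 115.8 CPM on VASA cambium plates, against 79.1, 127.8 and 80.1 CPM on VASA all hypocotyl plates, a difference of -0.20 ± 0.29 (FDR 0.84) whose sign turned without VASA cambium replicate 2 or VASA all hypocotyl replicate 2. SWEET17 had 115, 129.9 and 129.5 CPM on VASA cambium plates, against 101, 131 and 119 CPM on VASA all hypocotyl plates, a difference of 0.10 ± 0.14 (FDR 0.83). The median difference was -0.050 over the 6 genes and -0.0042 over all genes.

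The makeup of the plates moved with the gate in several classes. Cambium-like nuclei overlapped between the gates and were 6.07, 3.61 and 5.82% of nuclei on VASA cambium plates, against 5.12, 5.60 and 7.18% on VASA all hypocotyl plates. Unnamed nuclei were 70.9 to 75.5% on VASA cambium plates, against 58.2 to 63.0% on VASA all hypocotyl plates. Periderm-like nuclei numbered 0, 0 and 2 on VASA cambium plates, against 7, 9 and 9 on VASA all hypocotyl plates, and epidermis-like nuclei 2, 1 and 2 on VASA cambium plates, against 5, 6 and 6 on VASA all hypocotyl plates, both classes in which SWEET16 was high on plates. Cortex-like nuclei, the named class with the highest pooled SWEET16 level on plates, overlapped between the gates. They were 4.79, 3.97 and 3.77% of nuclei on VASA cambium plates, against 9.56, 6.90 and 3.31% on VASA all hypocotyl plates. The summed periderm markers had 35.5 to 116 CPM on VASA cambium plates with 13 to 14 of 16 markers detected, against 183 to 303 CPM on VASA all hypocotyl plates with 15 to 16 detected. Companion cell-like nuclei were 3.19, 2.89 and 4.79% of nuclei on VASA cambium plates, against 5.46, 6.03 and 6.08% on VASA all hypocotyl plates, and the summed companion cell markers overlapped, with 174 to 281 CPM on VASA cambium plates and 230 to 347 CPM on VASA all hypocotyl plates, 13 to 15 of 15 markers being detected in each group. In sums over nuclei, fewer nuclei of a type and less RNA in each cannot be told apart, and the part of these shares in the values of SWEET16 and SUC2 was not tested. With no filter on low counts SWEET16 passed the test, at -1.34 (FDR 0.0075). Of the 29 other genes of sugar transport tested, 0 were higher and 1 lower, with a median of -0.17. That one was VI1, a vacuolar invertase, with 52.6, 28.0 and 42.8 CPM on VASA cambium plates, against 148, 110.2 and 77.5 CPM on VASA all hypocotyl plates, a difference of -1.46 ± 0.25 (FDR 0.012).

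The comparison of d14 with WT asked which of the genes differ where the strigolactone receptor is mutated. Each genotype was 1 library, so there was no test, and intervals below cover counting error only. SUC2 had the highest ratio of the 9 genes, with 54 counts (26.0 CPM) in d14, against 15 counts (8.84 CPM) in WT, a ratio of 2.94 with a 95% exact interval of 1.63 to 5.60. The other 5 genes with counts had ratios near 1: SUC3 had 34.6 CPM in d14 and 33.6 CPM in WT, a ratio of 1.03 (0.72 to 1.48), SWEET17 1.01 (0.90 to 1.13), SWEET16 1.12 (0.84 to 1.51), AHA3 0.97 (0.61 to 1.54) and SUC4, with 15 counts in d14 and 10 in WT, 1.22 (0.51 to 3.04). Such intervals leave out 1 often between 2 single libraries. Of 16850 genes with at least 20 counts, 22.9% had an interval that left out 1, 11.1% above and 11.8% below, and the ratio was 2 or more for 4.39% and 0.5 or less for 4.21% of them, so 1 of 6 genes is near that background. With 5 CPM added to each value, the median ratio on the log2 scale was 0.095 over the 6 genes, 0.0070 over the 29 other genes of sugar transport with enough counts and 0.0024 over all genes. For SUC2 the ratio was 3.02 over all barcodes of at least 500 counts, where it had 190 counts in d14 and 56 in WT, 3.04 in nuclei over 2500 counts and 2.88 without the highest doublet scores. AHA3 and SUC3 moved with the depth of nuclei. Over 2500 counts AHA3 had 5 counts in d14 and 16 in WT, a ratio of 0.24 (0.07 to 0.68), and SUC3 had a ratio of 0.61 (0.36 to 1.03).

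The extra SUC2 counts of d14 lay mostly outside companion cell-like nuclei. Companion cell-like nuclei had 12 SUC2 counts (364 CPM) in d14, against 5 (199 CPM) in WT, a ratio of 1.83 (0.60 to 6.63). Xylem parenchyma-like nuclei had 20 counts (115 CPM) in d14, against 3 (26.9 CPM) in WT, a ratio of 4.28 (1.27 to 22.5), and vessel-like nuclei had 15 (79.3 CPM) in d14, against 1 (17.5 CPM) in WT, a ratio of 4.52 (0.70 to 190). Summed over these 2 xylem classes, a sum chosen after seeing the data, SUC2 had 35 of its 54 counts (64.8%) in d14, against 4 of 15 (26.7%) in WT. The CPM ratio was 4.06 (1.45 to 15.7). How many of all genes had an interval that left out 1 within these classes was not counted. The intervals treat counts as independent, though several came from the same nucleus. A SUC2 count was found in 22 of 166 such nuclei (13.3%) in d14, against 3 of 78 (3.85%) in WT. Epidermis-like nuclei, which were deeper at a median of 2275 counts against 1836 and 2063 in the xylem classes, had 0 SUC2 counts in both libraries over 160 nuclei. AHA3 had 0 counts in the xylem classes of both libraries, where 3 counts would be 8.26 CPM in d14 and 17.8 CPM in WT. The 25 xylem nuclei with SUC2 had 601 CPM of summed companion cell markers with 8 of 15 detected, against 144 CPM in the 219 without SUC2 and 6635 CPM in the 27 companion cell-like nuclei. In the 10x all hypocotyl library, xylem parenchyma-like nuclei held 13 of 72 SUC2 counts (46.2 CPM), in 5.65% of 124 nuclei, and on the plates 20 of 587.

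**Figure D4:**
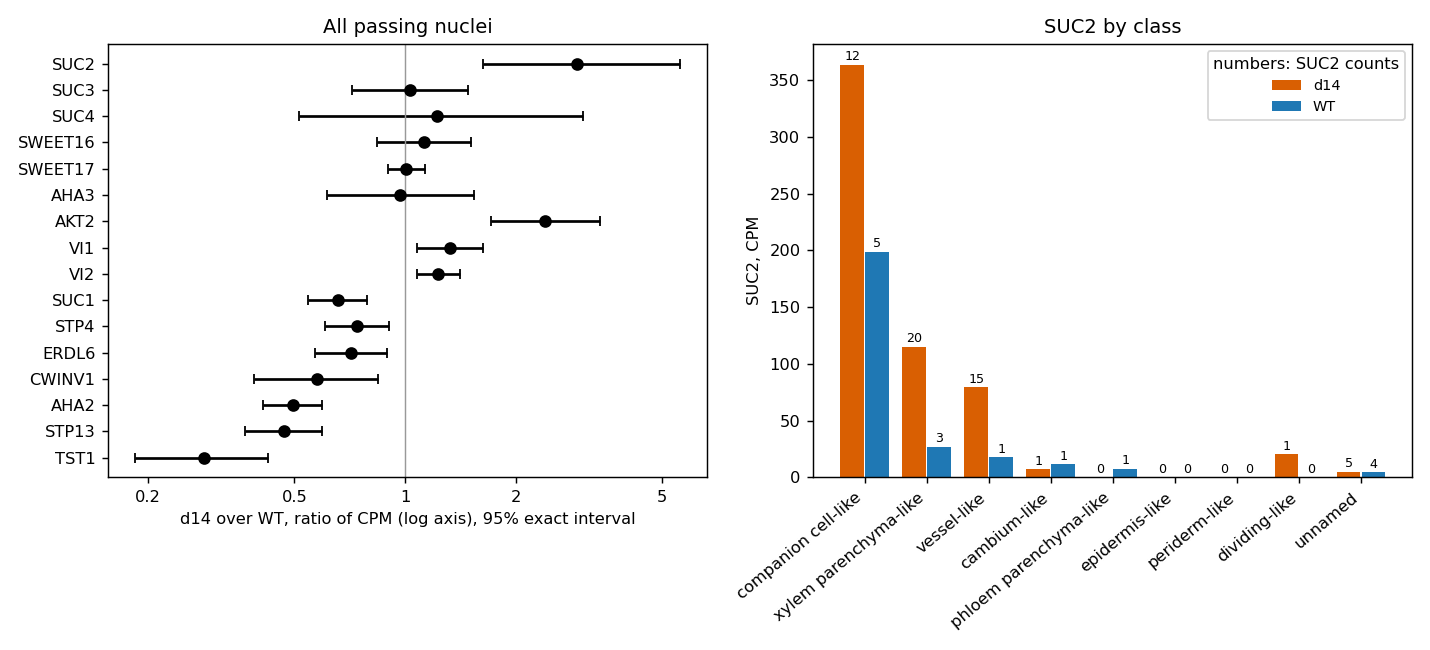
Left, ratio of CPM in d14 over WT with its 95% exact counting interval on a log axis, 1 library a genotype, for 6 of the 9 genes and 10 other genes of sugar transport. Those 10 were drawn because their intervals left out 1, and the rest of the 29 with at least 20 counts are not shown. Right, SUC2 level by cell type as bars from 0, d14 left of WT, with the counts above: SUC2 has 115 CPM in xylem parenchyma-like nuclei of d14, against 26.9 CPM in those of WT, on 20 and 3 counts.

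The makeup of the libraries also differed. Vessel-like nuclei were 9.85% of nuclei in d14, against 3.22% in WT, xylem parenchyma-like ones 10.3% in d14, against 8.19% in WT, and companion cell-like ones 1.95% in d14, against 1.61% in WT. Summed vessel markers had 636 CPM in d14, with 22 of 22 detected, against 310 CPM in WT, with 21 of 22, and summed companion cell markers 238 CPM in d14, against 177 CPM in WT, with 14 of 15 detected in each. With the class levels of d14 weighted by the class mix of WT, the SUC2 ratio was 2.14. Passing nuclei held 11.4% of all counts of the d14 library and 9.19% of those of the WT library. Barcodes of 1 to 100 counts, which lie far below the limit for a nucleus, had 46.4 CPM of SUC2 in d14, against 20.4 CPM in WT, so these barcodes differed in the same direction, and their part in the values of nuclei was not tested. Among other genes of sugar transport, AKT2 had 67.8 CPM in d14, against 28.3 CPM in WT, a ratio of 2.40 (1.71 to 3.40). TST1, a carrier that loads sugar into vacuoles, had 15.9 CPM in d14, against 56.0 CPM in WT, a ratio of 0.28 (0.18 to 0.42), STP13, a hexose-proton symporter, a ratio of 0.47 (0.37 to 0.59) and AHA2 a ratio of 0.49 (0.41 to 0.59). In all, 3 of 29 had intervals above 1 and 7 below, beside 11.1% above and 11.8% below over all genes. The other 2 above were the vacuolar invertase genes VI1 (1.33) and VI2 (1.23), named after their values were seen. SWEET15, a plasma membrane facilitator with fewer than 20 counts, had 13 counts in d14 and 0 in WT. Its d14 level was 3.53 times that of 3 counts in WT, a value that leaves out the counting error of the 13 counts. SWEET15 was likewise chosen after seeing its values, and how many of all genes show such counts was not counted.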

How the data were processed

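The authors deposited count matrices, whole-number counts of unique molecules by gene and nucleus, 1 for each of 9 libraries. They mapped plate and 10x all hypocotyl reads with STAR 2.7.8a and d14 and WT reads with Cell Ranger 6.0.1, introns included, to TAIR10. How reads that fit several genes were treated is not given in the sources used here. From these counts, nuclei were kept at over 1200 and under 15000 counts on plates, over 1200 and under 10000 in the 10x all hypocotyl library and over 1500 and under 15000 in d14 and WT, with under 20% mitochondrial counts. The count limits are those of the study. The study also limited plate nuclei by fluorescence, which was not applied here, and states no mitochondrial limit for d14 and WT, where it removed 0 nuclei. Intervals are exact at 95% and cover counting error only. Blank wells and spike-ins were left out.

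Nuclei were clustered with Seurat 5.3.0 (15 dimensions, resolution 1.8 on plates and 1.2 in droplets) without the 9 genes. A cluster was named for the class whose summed markers stood at least 2-fold above other nuclei with at least 3 markers raised, unless its 10 leading genes went against it. Doublets were scored with Scrublet in scanpy 1.11.5, run by group. Its own calls marked 0 or 1 nuclei of a group and were not used, and the 5% of highest scores in a group were left out as an alternative. Counts were summed by plate, or by class and plate with at least 3 nuclei, and tested with edgeR 4.0.16 (quasi-likelihood, R 4.3.3), with plate as a term for classes and Benjamini-Hochberg adjustment over all genes that passed edgeR's filter on low counts. The SE given with an edgeR log2 change is the size of the change divided by the square root of its F statistic. DESeq2 1.42.0 was an alternative. The test was checked on simulated counts. Levels and ratios used Python 3.11.15, pandas 2.3.3 and scipy 1.17.1. Plates of a gate were the replicates and came from 1 collection of hypocotyls, so p-values measure a technical spread.

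All 9 genes are named. Of 51 other genes of sugar transport, those past an FDR of 0.05 are named, at most 10 in a comparison, and for d14 against WT those with at least 20 counts, an interval that leaves out 1 and a ratio of at least 2 or at most 0.5. The 9 genes, the lists and the tests were chosen with earlier results of these data known. Promoter letters and positions come from the TAIR10.1 genome and annotation of RefSeq. Other promoter windows are not reported here.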

Additional observations from a re-analysis of the deposited data

Results flagged for a closer look

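Barcodes of 1 to 100 counts, which were in no comparison above, held transcripts of several of the 9 genes at a higher CPM than the nuclei of the same library, with a 95% exact interval of the ratio above 1. Low-count barcodes over nuclei, the ratio for SUC2 was 1.79 in d14, 2.30 in WT and 2.19 in the 10x all hypocotyl library. AHA3 had 2.47 in d14, 2.29 in WT and 2.82 in the 10x all hypocotyl library. These 2 genes, read mostly in companion cell-like nuclei on the plates, were thus higher among low-count barcodes than in nuclei in every droplet library. SUC3 had 1.58 in d14, 1.69 in WT and 1.37 in the 10x all hypocotyl library, and SUC4 had 2.22 in d14 and 2.88 in WT. SWEET17 had 1.15 in WT and 1.41 in the 10x all hypocotyl library but 0.87 in d14, and SWEET16 was lower among these barcodes, at 0.51 in d14 and 0.63 in WT. SWEET11, with 5 counts among low-count barcodes and 2 in nuclei of the 10x all hypocotyl library, had 7.58 (1.24 to 79.6). The cause of these differences was not tested.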

How the results depend on the processing

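Of 153 repeats of the values of single genes with a test under another setting, 143 kept direction and side of the threshold, 6 lost the call, 2 gained it and 2 turned sign. The 6 were AHA3 between xylem parenchyma-like and phloem parenchyma-like nuclei, with values given in the report. The 2 gains were SWEET16 between gates with no filter (-1.34) and SUC2 between xylem parenchyma-like and phloem parenchyma-like nuclei without VASA cambium replicate 1 (3.72), and AHA3 between gates, which lay between -0.55 and 0.093 with 1 plate left out, turned positive without VASA all hypocotyl replicate 2 (0.024) or VASA cambium replicate 2 (0.093). SUC2, AHA3 and SWEET17 kept their calls between companion cell-like and phloem parenchyma-like nuclei under every alternative, at 7.90 to 10.06, 7.52 to 8.43 and -3.26 to -2.62. Each passed the filter through the class where it was high, and the clusters were made from the same nuclei. The kept calls therefore show that the values hold under other settings and are not independent support. Over all genes, the gates differed in 505, but in 1291 with no filter, which tests more genes, and in 231 to 355 with 1 plate left out. The count between xylem parenchyma-like and phloem parenchyma-like nuclei was 929, but 1906 with no filter and 545 without the mixed cluster, an alternative added after seeing the data, like the sum of SUC2 over the xylem classes. Between d14 and WT, 1 of the 6 genes with at least 20 counts had an interval that left out 1, but 2 in barcodes of at least 500 counts, where SWEET17 joined at 0.93, and 2 in nuclei over 2500 counts, where AHA3 did at 0.24. The share of all genes with such an interval was not counted under these 2 settings, so the change from 1 to 2 is not read as a result. In nuclei over 2500 counts, 3 of 6 genes kept their highest class. For all but these constructions, the cause was not tested. Between gates, same-numbered plates correlated at 0.13, -0.03 and 0.07 in their deviations, so the numbers do not pair plates. With a replicate block 566 genes differed and SWEET16 had an FDR of 0.074. With no replicate block, the class comparisons gave 943 and 878 calls and changed no call of the 9 genes. Depth limits SWEET11, SWEET12 and SWEET13 most, since 3 counts on a plate were 1.65 to 2.61 CPM.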
